A study of Rattus norvegicus with 8 samples.

Results

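The genes described here are the chemokines, the interleukins, their receptors and 4 further inflammation genes (Tnf, Lcn2, Vcam1 and Icam1), as printed on a rat expression array. Members were taken by patterns on the gene name. The patterns took 132 gene names, measured by 147 probes, of the 26269 names and 30367 probes on the array. The RNA came from the hypothalamus of lactating Wistar rats on postpartum day 7. The groups were 4 dams exposed to TCDD, the most toxic dioxin, which binds the aryl hydrocarbon receptor, and 4 control dams. Both groups share the strain, the tissue and the day, and the labels give no dose, route or time of the TCDD exposure. Each dam's Cy3-labelled RNA was hybridised to its own array, and replicates 1 to 4 name the arrays of a group.

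Chemokines are small secreted proteins that guide migrating cells through G protein-coupled receptors, and they are named by the spacing of their first cysteines (CC, CXC and CX3C). Interleukins and tumour necrosis factor (Tnf) carry signals between immune cells and act through receptors that feed the NF-kB or JAK-STAT pathways. In healthy brain most inflammatory members are scarce, while a few chemokines and cytokines of neurons and glia, such as fractalkine (Cx3cl1) and interleukin 34, are made constitutively and address microglia.

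All 4 TCDD arrays lay on one slide and all 4 control arrays on the other, so slide and exposure cannot be told apart in any difference below. The 75th percentile of the processed signal, used to scale each array, was 806, 1005, 1077 and 1044 intensity units on the TCDD arrays and 756, 973, 1028 and 1051 on the control arrays. All 10 listed genes of hypothalamic neurons, Oxt, Avp, Pmch and Hcrt among them, were well above background on all 8 arrays. TCDD replicate 2 stood apart in the genes described here. It alone held 8 of the 14 members found on a single array, and its summed level of 8 meningeal and choroid plexus markers was 3.45 on the log2 scale, against 1.07 to 1.46 on the other TCDD arrays and 1.52 to 2.52 on the control arrays. For several members that it moved, the difference is given with and without it.

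A minority of the members were detected throughout. A probe is called detected here when the scanner software marked it well above the local background. Of the 132 members, 49 were detected on all 8 arrays by at least 1 probe, 30 on 1 to 7 arrays and 53 on no array. By probe, 36.1% of the members' probes were above background on all 8 arrays and 40.1% on none, while over the whole array the shares were 60.3% and 27.7%. The number of members detected was 51, 67, 57 and 55 on the TCDD arrays and 57, 62, 59 and 59 on the control arrays. The ranges overlapped, and TCDD replicates 1 and 2 held the lowest and the highest count. Over all probes of the platform, 61.7%, 66.6%, 65.7% and 65.7% were above background on the TCDD arrays. On the control arrays the shares were 65.0%, 66.7%, 65.0% and 65.7%, so TCDD replicate 1 was the lowest array there too. A probe that is not well above background may still have a target at a low level, so these counts bound detection on this platform and not the presence of a transcript.

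**Figure D1:**
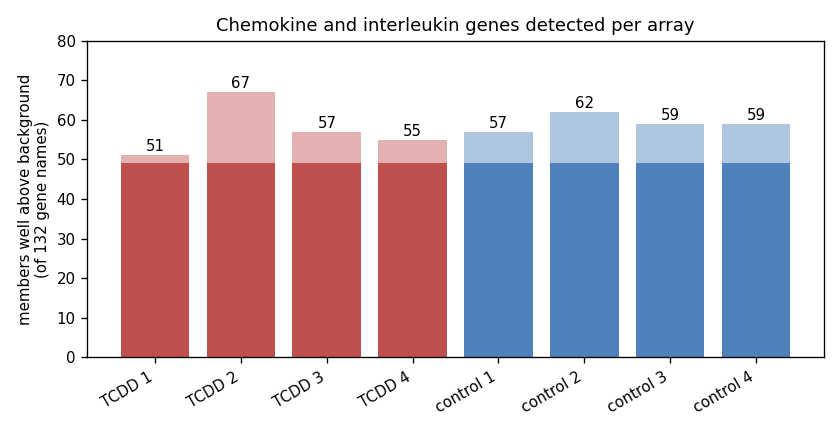
Number of the 132 members well above background on each array (vertical axis, gene names), for the 4 TCDD arrays (red) and the 4 control arrays (blue). The dark part of each bar holds the 49 members detected on all 8 arrays, and the total ran from 51 to 67 on TCDD arrays and from 57 to 62 on control arrays.

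The undetected members included some of the classical inflammatory signals, but not all. Tnf was above background on every array, and Il1a and Il1b on some. Among the 36 interleukins and Tnf, 19 were on no array. They included Il6, the main fever and acute-phase cytokine, Il10, an anti-inflammatory cytokine, and the T cell products Il2, Il4, Il5, Il9, Il13, Il17f, Il21 and Il22. Among the 20 CC chemokine ligands 7 were on no array, Ccl4, Ccl7 and Ccl12 among them, and among the 19 chemokine receptors 9, with the monocyte receptor Ccr2 and the lymphocyte chemokine receptors Ccr4, Ccr7 and Cxcr3. Of the 35 interleukin receptors 15 were on no array, including Il1r1, the signalling receptor of interleukin 1, Il2ra and Il10ra. The remaining undetected ligands were Ccl20, Ccl25, Ccl26, Ccl28, Cxcl1, Cxcl5 (now Cxcl6), Cxcl11, Il3, Il7, Il12b, Il17c, Il20, Il27, Il36g, Il1f10 and Il1f6 (now Il36a). The remaining undetected receptors were Ccr1, Ccr1l1, Ccr3, Ccr8, Cxcr5, Il1rl2, Il5ra, Il9r, Il12rb1, Il17rb, Il17rd, Il18rap, Il20rb, Il22ra1, Il27ra, Il28ra (now Ifnlr1) and Il31ra. In the same RNA, 7 of 9 listed markers of T and B cells (Cd3e, Cd4, Cd8a and Ms4a1 among them) were on no array either. The T cell marker Cd3d, however, was on all 8 arrays, and Cd3g was on 1 TCDD and 1 control array. All 12 microglial markers were on all 8.

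A further 26 members were detected on some arrays without passing the filter of the test, which asked for all 4 arrays of at least 1 group. Il1b, the main inflammatory interleukin 1, was above background on 1 TCDD and 2 control arrays. Ccl2, the chemokine that attracts monocytes, was likewise on 1 TCDD and 2 control arrays. Cxcl10, an interferon-induced ligand, was on 3 TCDD and 2 control arrays, Cxcl9 on 1 and 2, and Ccl9 on 3 and 3. Cxcl3, a neutrophil attractant, was on 0 TCDD and 3 control arrays. Il17re was on 1 TCDD and 3 control arrays. Cxcr6 was on 0 and 2, Cxcr1 on 2 and 0, and Il2rb, Ccr6 and Cxcl13 on 1 and 1 each. Single detections on a control array were those of Cxcl2, Cxcr2 and Il17a. Single detections on a TCDD array were Ccl11, Ccl21, Il12rb2, Il13ra2, Il1f8 (now Il36b), Il1r2, Il24 and Il7r, all on replicate 2, and Il18r1, Il1rl1 and Il21r on other replicates. In all, 12 members were detected on TCDD arrays alone and 6 on control arrays alone. Of the TCDD-only members, 11 rested on 1 array, and 8 of those on replicate 2, which held 18.3% of the single-array probes of the whole platform.

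Ligands and receptors known to bind each other were detected together in few cases. Of 27 ligands set beside their textbook receptors, 4 were on all 8 arrays with every listed receptor also on all 8. These were Cx3cl1 with Cx3cr1, Cxcl12 with Cxcr4 and Cxcr7 (now Ackr3), Ccl27 with Ccr10, and Il11 with Il11ra1 and its signalling partner Il6st. For 9 ligands the ligand was on all 8 arrays and at least 1 listed receptor chain was not. Ccl17 and Ccl22 share the receptor Ccr4, Ccl19 signals through Ccr7 and Ccl24 through Ccr3, and these 3 receptors were on 0 arrays. Ccl5 was on 8 arrays and its receptor Ccr1 on 0. Il33 had Il1rap on 8 arrays and its own receptor chain Il1rl1 on 1. Il18 had Il18r1 on 1 array and Il18rap on 0, although Il18bp, which captures interleukin 18, was on 8. Conversely, Il6 was on no array and both chains of its receptor, Il6r and Il6st, were on 8.

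The common gamma chain Il2rg, which the receptors of interleukins 2, 4, 7, 9, 15 and 21 share, was on all 8 arrays, but most of its partners were not. Il4ra was on 8 arrays, Il2rb on 2, Il7r on 1, Il21r on 1, and Il2ra and Il9r on 0. Of the 6 ligands, Il15 was on all 8 arrays and Il2, Il4, Il7, Il9 and Il21 were on none.

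The comparison of TCDD with control dams covered the 53 members that passed the filter, 49 of them on all 8 arrays. Values are log2 signals relative to the array's 75th percentile, so they compare arrays for 1 probe and not 1 gene with another. Differences are TCDD minus control, tested with limma over all genes, and a call needed an adjusted p (Benjamini-Hochberg) under 0.05. Of the 53 members, 0 passed, against 4 of the 16574 genes tested (0.0241%). At an unadjusted p under 0.05 there were 4 members, Ccl22, Il11 and Il2rg (higher in TCDD dams) and Ccl3 (lower), or 7.55%, against 10.8% of all genes and 7.08% of the 11368 genes with a symbol. In TCDD dams 25 members were higher and 28 lower. Of the 53, 4 (Ccl1, Ccl3, Il1a and Il17b) passed the filter through control arrays alone and 0 through TCDD arrays alone. Such entry favours dim genes that are lower in TCDD dams. The sign of Ccl3 therefore carries no weight, and the count of lower members holds that bias. The members' median log2 difference was -0.0033, while the median over all genes was 0.0042. The median absolute difference was 0.081 in the members and 0.074 in all genes. For 31 of the 49 members on all arrays the 95% interval of the difference lay within 0.5 of 0 in both directions, and for 16 within 0.3. For these 49 the half-width of the interval ran from 0.13 to 1.66, with a median of 0.28, so for many members a moderate change was not detectable with 4 arrays a group.

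The constitutive brain chemokines had close values in the 2 groups. Cx3cl1, the membrane-bound fractalkine of neurons, read 4.59, 4.68, 4.74 and 4.73 in TCDD dams and 4.57, 4.82, 4.72 and 4.59 in control dams. The TCDD values fell inside the control range, and the difference was 0.01 (95% interval -0.16 to 0.17, limma adjusted p = 0.986), with a sign that turned under other scalings. Its microglial receptor Cx3cr1 read 0.48, 0.55, 0.69 and 0.71 in TCDD dams and 0.83, 0.55, 0.63 and 0.48 in control dams, a difference of -0.02 (interval -0.23 to 0.19). Cxcl12, which guides migrating neurons and leukocytes, averaged 0.85 ± 0.17 in TCDD dams and 0.99 ± 0.21 in control dams (SD, n = 4 each), with overlapping values and a difference of -0.14 (interval -0.43 to 0.14). Its receptors Cxcr4 and Cxcr7, the second of which clears Cxcl12, differed by 0.07 (SE 0.12) and 0.08 (SE 0.15). Cxcl14, a chemokine that neurons express, differed by -0.06 (SE 0.079) and the epithelial chemokine Ccl27 by 0.03 (SE 0.074). None of these 7 passed the test. Of the other chemokine genes, the mucosal chemokine Cxcl17 differed by -0.24 (SE 0.16) and the skin-homing receptor Ccr10 by -0.08 (SE 0.12).

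The tested cytokines of neurons, glia and myeloid cells overlapped between the groups as well. Il34, a neuronal ligand of the microglial survival receptor Csf1r, read 2.84, 2.93, 2.86 and 2.84 in TCDD dams and 2.94, 2.92, 2.77 and 2.81 in control dams. All 4 TCDD values lay within the control range, with a difference of 0.01 (interval -0.12 to 0.14, limma adjusted p = 0.983). Il33, a nuclear alarm cytokine of glia, read -0.10, 0.02, -0.01 and -0.14 in TCDD dams and -0.0008, -0.08, 0.05 and -0.08 in control dams. Its difference was -0.03 (interval -0.16 to 0.10). Il18, which inflammasomes activate, averaged -1.91 ± 0.20 in TCDD dams and -1.96 ± 0.11 in control dams (SD, n = 4 each), a difference of 0.06 (SE 0.11). Tnf, the founding member of its cytokine family, read -4.68, -4.52, -4.21 and -4.01 in TCDD dams and -4.09, -4.20, -4.42 and -3.82 in control dams. The groups overlapped, with a difference of -0.22 (interval -0.61 to 0.17, adjusted p = 0.733). Il16, a ligand of CD4, differed by -0.04 (SE 0.12) and Il15 by 0.39 (SE 0.25, adjusted p = 0.66). The Il15 value was 0.05 with normexp and ran from 0.22 to 0.59 with 1 array left out.

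The remaining interleukins showed no member past the threshold and overlapping groups throughout. Il12a and Il23a, which each pair with the undetected Il12b to form a cytokine, differed by -0.0033 (SE 0.081) and -0.05 (SE 0.12). Il17d, a member of the interleukin 17 family, read -1.60, -1.62, -1.71 and -1.56 in TCDD dams and -1.67, -1.67, -1.62 and -1.84 in control dams, a difference of 0.08 (interval -0.06 to 0.23). Its relatives Il17b and Il25, a type 2 cytokine, differed by 0.07 (SE 0.15) and -0.06 (SE 0.11), and Il17b was above background on 3 TCDD and 4 control arrays. Il17ra, a receptor chain of the interleukin 17 family, read 0.41, 0.79, 0.0009 and 0.43 in TCDD dams and 0.57, 0.77, 0.44 and 0.32 in control dams. TCDD replicates 2 and 3 were the highest and the lowest array for it, and the difference was -0.12 (SE 0.17), or -0.24 (SE 0.14) without TCDD replicate 2.

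**Figure D2:**
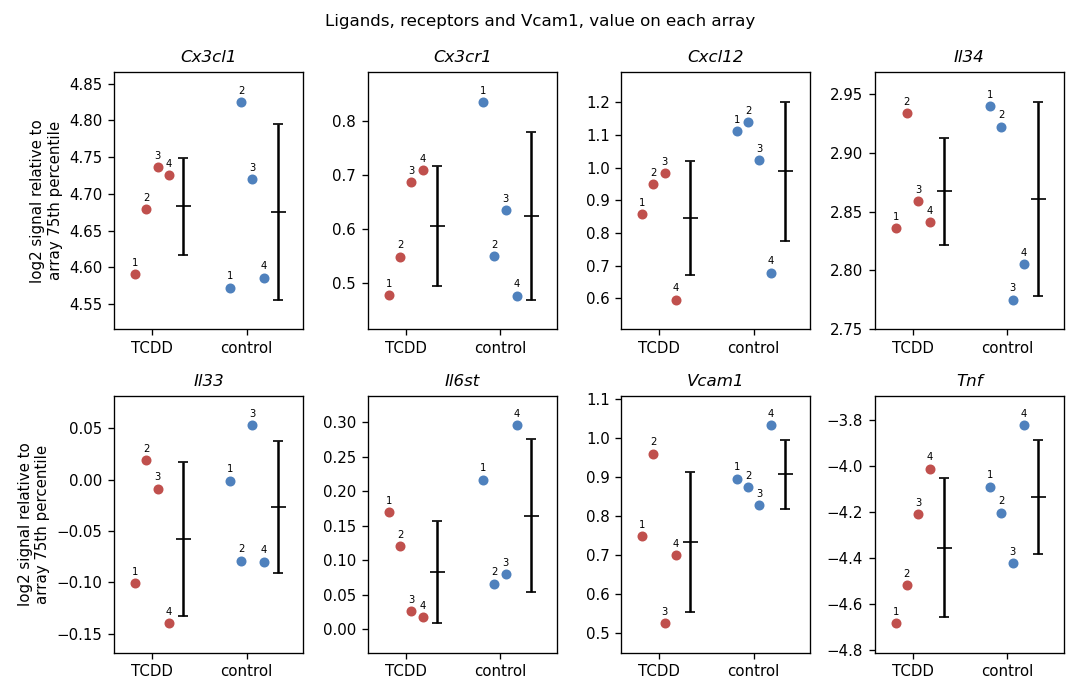
Log2 signal relative to the array's 75th percentile (vertical axis) for 7 ligands, receptors or cytokines and the adhesion molecule Vcam1, each point 1 dam numbered by replicate, with TCDD (red) left of control (blue) and the mean and SD in black. The groups overlap in all 8 panels, with differences from -0.22 for Tnf to 0.01 for Cx3cl1.

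Of the interleukin 1 genes, Il1a was close to the detection limit, while Il1rn, Il1rap and Il1rapl1 were above background on every array. For Il1rap this held for 1 of its 3 probes, that of transcript variant 2. The probe for variant 1 was above background on 1 TCDD array alone, and the third probe on 0 arrays. Il1a was above background on 3 TCDD and 4 control arrays and read -6.53, -5.45, -4.22 and -5.03 in TCDD dams and -5.52, -5.07, -4.69 and -4.62 in control dams. TCDD arrays held both the highest and the lowest value, and the difference was -0.33 (SE 0.45, limma adjusted p = 0.865). Il1rn, the secreted antagonist of interleukin 1, read -3.45, -4.14, -2.99 and -3.41 in TCDD dams and -3.79, -3.71, -3.54 and -3.48 in control dams, a difference of 0.13 (SE 0.22, adjusted p = 0.894), or 0.35 without TCDD replicate 2. The accessory chain Il1rap differed by 0.04 (SE 0.14) and its X-linked brain relative Il1rapl1 by 0.02 (SE 0.15). The other soluble inhibitors and antagonists, Il18bp, Il36rn and Il22ra2, differed by 0.07, 0.16 and -0.08. In total, 3 of the 4 antagonists and decoy receptors tested were higher in TCDD dams and 1 lower, with 0 past the threshold.

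Most interleukin receptors had differences close to 0. In TCDD dams 7 of the 13 tested were higher and 6 lower, their median difference being 0.02 and 0 past the threshold. Il6st, the signalling chain gp130 shared by interleukins 6 and 11, read 0.17, 0.12, 0.03 and 0.02 in TCDD dams and 0.22, 0.07, 0.08 and 0.30 in control dams, a difference of -0.08 (interval -0.24 to 0.08). The ligand-binding chain Il6r differed by 0.05 (SE 0.079) and the interleukin 10 receptor chain Il10rb by 0.07 (SE 0.074). Il17ra, Il11ra1, Il13ra1, Il3ra and Il4ra ranged from -0.12 to 0.09. Il20ra, a receptor chain of interleukin 20, spread more widely, at -4.82, -5.27, -5.64 and -6.02 in TCDD dams and -5.67, -5.86, -5.24 and -5.15 in control dams, a difference of 0.05 (interval -0.57 to 0.66). The exception in rank, not in the adjusted test, was Il2rg.

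Il2rg read 0.56, 0.60, 0.64 and 0.49 in TCDD dams and 0.18, 0.14, 0.43 and 0.34 in control dams. Every TCDD value lay above every control value, and it was the only 1 of the 53 members (1.89%) whose groups did not overlap, against 7.05% of all genes and 4.42% of genes with a symbol. The means were 0.57 ± 0.062 in TCDD dams and 0.27 ± 0.13 in control dams (SD, n = 4 each), a difference of 0.30 (1.23-fold, interval 0.13 to 0.47, limma adjusted p = 0.200). The probe lies on chromosome X at 89342063 to 89342122 (rn4). A second Il2rg probe, for another transcript model, was above background on 1 control array alone. Over 21 alternatives of processing the difference stayed between 0.26 and 0.35 and the adjusted p between 0.125 and 0.452. Red cell genes, which track blood in the tissue, had a summed log2 level of 7.55 to 8.42 in TCDD dams and 6.77 to 8.18 in control dams, with all 5 genes higher in TCDD dams and 4 of them at an unadjusted p under 0.05. Of the neutrophil and monocyte markers, 3 of 7 (Elane, Ly6c and Fpr1) were on no array, and the 3 tested were higher in TCDD dams, Csf3r by 0.31 (SE 0.077, adjusted p = 0.204). All 8 tested genes of brain endothelium were higher in TCDD dams, 0 of them at an unadjusted p under 0.05, and their list's summed level was 2.56 to 2.82 in TCDD dams and 2.45 to 2.69 in control dams. Other lists were mixed. Of the microglial markers 5 were higher and 7 lower in TCDD dams, and of the astrocyte markers 4 were higher and 2 lower. Of the tested meningeal and choroid plexus markers 2 were higher and 5 lower. Pituitary genes varied widely, with a summed level of 1.13 to 5.49 in TCDD dams and -0.06 to 5.07 in control dams, and Prl was above background on 3 TCDD arrays and 1 control array. The part of these cells in the Il2rg values was not tested. In tissue RNA, a change in the number of cells that carry a transcript and a change per cell cannot be told apart.

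Il11, a cytokine of the interleukin 6 family, read -4.10, -4.44, -4.21 and -4.20 in TCDD dams and -4.40, -4.52, -4.53 and -4.65 in control dams. All but 1 of the TCDD values lay above the control range. The difference was 0.29 (SE 0.085, limma adjusted p = 0.261), but with normexp background correction it was -0.01. Ccl22, a ligand of Ccr4 that dendritic cells and macrophages secrete, read -4.86, -4.94, -4.57 and -4.78 in TCDD dams and -5.69, -5.30, -4.91 and -5.21 in control dams. The groups overlapped through control replicate 3, and the difference was 0.49 (SE 0.16, adjusted p = 0.308), or 0.15 with normexp. The Il11 probe lies on chromosome 1 at 67788418 to 67788477 and that of Ccl22 on chromosome 19 at 10697623 to 10697682 (rn4). Ccl17, the other Ccr4 ligand, differed by -0.17 (SE 0.18).

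**Figure D3:**
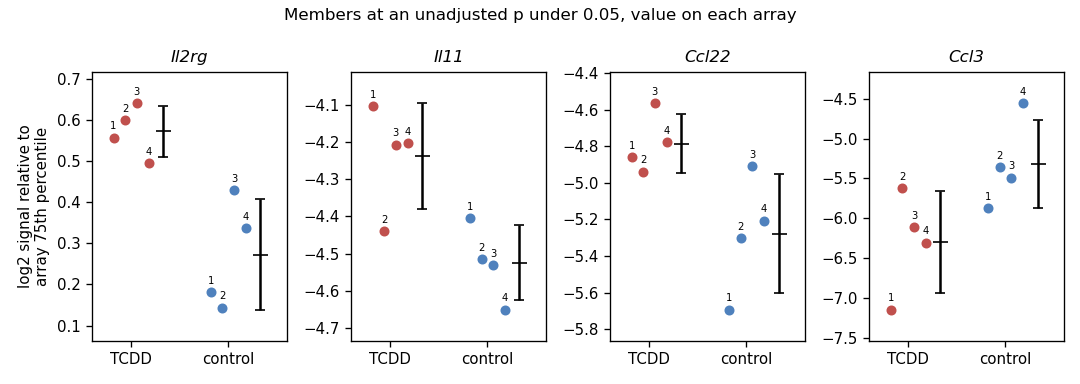
Log2 signal relative to the array's 75th percentile (vertical axis) for the 4 members at an unadjusted p under 0.05, each point 1 dam numbered by replicate, with TCDD (red) left of control (blue) and the mean and SD in black. The groups are separate for Il2rg and overlap for Il11, Ccl22 and Ccl3.

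For the 3 members with the smallest p among those higher in TCDD dams, the 250 bases before the annotated start are shown, since TCDD acts through a receptor that binds DNA. The sequences are RefSeq's on build GRCr8, at chrX:70439001-70439250 (minus strand) for Il2rg, chr1:78098372-78098621 (plus strand) for Il11 and chr19:10270360-10270609 (minus strand) for Ccl22, each 5′ to 3′. Capitals mark GCGTG, the core of the aryl hydrocarbon receptor's response element, which was searched on both strands.
Il2rg: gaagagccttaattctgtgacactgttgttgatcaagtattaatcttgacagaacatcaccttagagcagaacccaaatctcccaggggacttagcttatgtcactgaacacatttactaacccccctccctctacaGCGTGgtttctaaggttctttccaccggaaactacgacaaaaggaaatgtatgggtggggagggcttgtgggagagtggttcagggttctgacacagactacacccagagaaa
Il11: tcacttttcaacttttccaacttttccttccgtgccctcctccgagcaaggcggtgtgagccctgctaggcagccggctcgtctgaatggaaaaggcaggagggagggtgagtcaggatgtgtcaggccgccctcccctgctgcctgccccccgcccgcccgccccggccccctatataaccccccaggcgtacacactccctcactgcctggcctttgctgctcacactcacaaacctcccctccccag
Ccl22: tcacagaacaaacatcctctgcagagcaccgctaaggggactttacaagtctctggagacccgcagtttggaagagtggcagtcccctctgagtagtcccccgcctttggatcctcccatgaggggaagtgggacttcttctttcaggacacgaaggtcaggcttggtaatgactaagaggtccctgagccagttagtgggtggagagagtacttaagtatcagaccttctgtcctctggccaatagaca
Il2rg held 1 match, which began 113 bases before the start, and the other 2 windows held 0. Of 33469 rat promoter windows of this length 25.9% held a match, as did 12 of the 41 tested members in the table (29.3%) and 10 of the 61 untested members (16.4%). The kappaB consensus of NF-kB was found in 3 of the 41 tested members (Il1rap, Lcn2 and Vcam1) and in 15 of the 61 untested ones (24.6%), with 6.33% of all windows. Matches are letters in a window and not shown to be sites.

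CC ligands had the widest differences among the tested members. The 2 largest in size, of Ccl1 and Ccl3, belonged to dim members that were not above background on every array. Among the 49 members on all 8 arrays the differences ran from -0.72 for Ccl19 to 0.49 for Ccl22, both also CC ligands. In TCDD dams 2 of the 7 CC ligands on all 8 arrays were higher. The other 5 were lower, as were 48.5% of all genes tested, and the median difference of the 7 was -0.12. None of the 9 tested passed the threshold. Ccl3, a macrophage chemokine, was above background on 2 TCDD and 4 control arrays. It read -7.14, -5.62, -6.11 and -6.30 in TCDD dams and -5.87, -5.36, -5.49 and -4.56 in control dams. The groups overlapped, and the difference was -0.98 (SE 0.36, limma adjusted p = 0.364), or -0.28 with normexp. It left the members at an unadjusted p under 0.05 when TCDD replicate 1, TCDD replicate 4 or control replicate 4 was left out, with differences of -1.20 to -0.69 over the 8 arrays left out in turn. Ccl1, a T cell chemokine, was on 0 TCDD and 4 control arrays, with measured means of -7.14 in TCDD dams and -6.04 in control dams. The groups overlapped, since TCDD replicate 1, at -6.12, lay above control replicates 1, 2 and 4, at -6.18, -6.23 and -6.23. With the dim arrays raised to the lowest signal above background, the mean was 1.12-fold lower in TCDD dams. The limma adjusted p of 0.468 belongs to the measured difference of -1.10 (interval -2.20 to 0.01), which includes 0. Ccl3 and Ccl1 passed the filter through control arrays alone, as did Il1a and Il17b, and no member passed through TCDD arrays alone. Entry through the control arrays favours dim genes that are lower in TCDD dams, so the signs for Ccl1 and Ccl3 carry no weight. Of these members, only Il17b was higher in TCDD dams, by 0.07. Ccl5, a T cell and macrophage chemokine, read -1.07, -0.23, -1.60 and -1.27 in TCDD dams and -1.18, -1.16, -1.03 and -0.33 in control dams, high on TCDD replicate 2 and control replicate 4, with a difference of -0.12 (SE 0.30), or -0.39 (SE 0.23) without TCDD replicate 2. Ccl6, a myeloid chemokine, differed by -0.61 (SE 0.33, adjusted p = 0.578), and its second probe by -0.31. For the first probe the difference was -0.30 with normexp and -0.94 without TCDD replicate 2. Ccl24, a ligand of Ccr3, read 3.18, 3.06, 3.07 and 2.18 in TCDD dams and 2.88, 2.83, 2.95 and 2.95 in control dams, so TCDD replicate 4 was the low array. Ccr9, a receptor of gut-homing lymphocytes, differed by 0.28 (SE 0.15, adjusted p = 0.573).

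**Figure D4:**
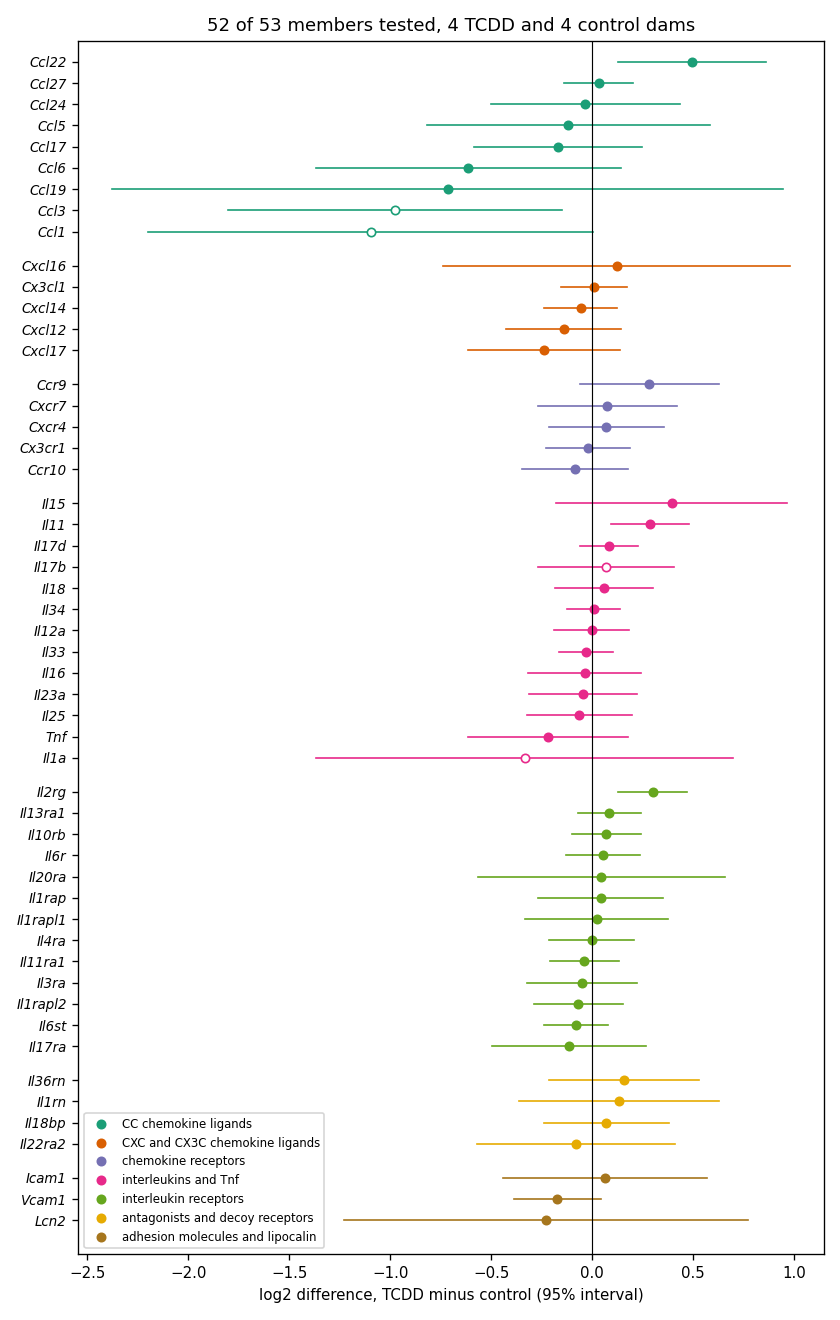
Log2 difference, TCDD minus control, with its 95% interval (horizontal axis) for 52 of the 53 members tested, grouped by role from CC ligands at the top to adhesion molecules at the bottom. Open circles mark members not above background on every array. In 31 of the 53 the difference is under 0.1 in size, and the widest intervals are those of Ccl19, Ccl1, Il1a, Lcn2, Ccl3 and Cxcl16.

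Ccl19, which draws lymphocytes and dendritic cells through Ccr7, had the largest SD within a group among the tested members. It read -3.37, -0.31, -2.98 and -3.32 in TCDD dams and -3.03, -1.47, -1.26 and -1.35 in control dams. TCDD replicate 2 was the highest array, control replicate 1 lay among the other TCDD arrays, and the difference was -0.72 (SE 0.72, limma adjusted p = 0.804). Without TCDD replicate 2 it was -1.44 (SE 0.42, adjusted p = 0.303). Col1a2, a collagen gene of meningeal fibroblasts, was likewise highest on TCDD replicate 2, lower on control replicates 2 to 4 and lowest on the other TCDD arrays and control replicate 1, at -0.52, 2.45, -0.24 and -0.39 in TCDD dams and -0.20, 1.20, 1.13 and 1.32 in control dams. Its part in the Ccl19 values was not tested.

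Several members of vessels and myeloid cells were also high on TCDD replicate 2. Cxcl16, a membrane chemokine and scavenger receptor, read -2.07, -0.29, -1.92 and -1.51 in TCDD dams and -1.72, -1.54, -1.89 and -1.12 in control dams. Icam1, the adhesion molecule for leukocyte integrins, read -2.92, -2.06, -3.03 and -2.77 in TCDD dams and -3.06, -2.87, -2.64 and -2.47 in control dams. Lcn2, an iron-binding acute-phase protein, read -5.35, -3.66, -4.90 and -4.12 in TCDD dams and -4.72, -4.50, -4.62 and -3.28 in control dams. In each of these 3 genes TCDD replicate 2 was the highest TCDD array and control replicate 4 the highest control array, and none passed the test (adjusted p from 0.913 to 0.959). Without TCDD replicate 2 the difference was -0.26 for Cxcl16, -0.15 for Icam1 and -0.51 for Lcn2, against 0.12, 0.06 and -0.23 with it. The choroid plexus gene Ttr was highest on the same 2 arrays, at 1.84 and 1.11, but other listed genes of that tissue were not. Prlr was lowest on TCDD replicate 2, at -5.29, Kl highest on TCDD replicate 1 and Folr1 on control replicate 1. The neutrophil gene S100a8 read -3.53 on TCDD replicate 2 and -5.63 to -4.34 on the other arrays. Whether they bear on the members was not tested. Vcam1, the endothelial ligand of lymphocyte integrins, read 0.75, 0.96, 0.53 and 0.70 in TCDD dams and 0.90, 0.87, 0.83 and 1.03 in control dams, a difference of -0.17 (SE 0.094, adjusted p = 0.586). Over all tested members, TCDD replicate 2 was the highest array for 13 of 53 (24.5%) and for 13.1% of all genes. Without it, 8 members stood at an unadjusted p under 0.05, with Ccl19, Ccl6, Vcam1 and Il1rn added, and 0 passed the adjusted threshold. The 8 were 15.1% of the members, and in the same fit 10.8% of all genes stood at that p.

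**Figure D5:**
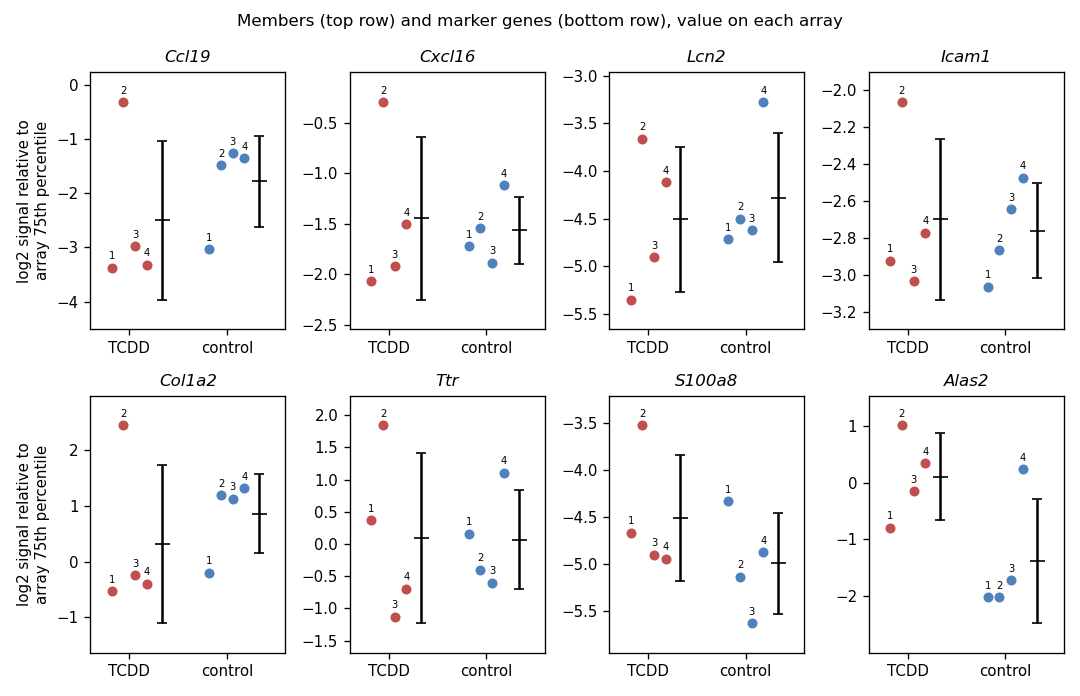
Log2 signal relative to the array's 75th percentile (vertical axis) on each array for 4 members (top row) and 4 marker genes of meninges, choroid plexus, neutrophils and red cells (bottom row), with TCDD (red) left of control (blue), points numbered by replicate and the mean and SD in black. TCDD replicate 2 is the highest TCDD array in every panel, and Ccl19 and Col1a2 are both low on control replicate 1 and on the other TCDD arrays.

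Genes that carry or answer these signals were set beside them. A list of 73 genes (receptors and adaptors, NF-kB, JAK-STAT, other cytokines, and chemokine scavengers and G proteins) had 66 on the array and 56 tested. Of these, 26 had a positive and 30 a negative difference, 0 passed the threshold, and 5 (2 higher, 3 lower) stood at an unadjusted p under 0.05, or 8.93% against 10.8% of all genes. In 3 of the 56 (5.36%) the groups did not overlap, against 7.05% of all genes. The median difference was -0.0054. Ccrl2, an atypical receptor that presents chemerin, read -4.46, -4.59, -4.58 and -4.19 in TCDD dams and -4.67, -4.93, -4.89 and -4.81 in control dams, without overlap. Its difference was 0.37 (SE 0.10, limma adjusted p = 0.236), or 0.12 with normexp. Cntfr, the receptor of ciliary neurotrophic factor, was lower by 0.48 on the log2 scale without overlap, at -3.94 ± 0.21 in TCDD dams and -3.46 ± 0.26 in control dams (SD, n = 4 each; adjusted p = 0.289). Stat5b, the transcription factor that prolactin and interleukin 2 receptors activate, averaged -4.28 ± 0.079 in TCDD dams and -4.03 ± 0.19 in control dams, also without overlap (adjusted p = 0.381). Nfkbie, an inhibitor of NF-kB, differed by -0.19 and Tgfb2 by 0.51 (adjusted p = 0.397 and 0.424). With normexp the differences were -0.28 for Cntfr, -0.17 for Stat5b, -0.17 for Nfkbie and 0.25 for Tgfb2.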

How the data were processed

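Hypothalamic RNA of 4 TCDD-exposed and 4 control dams was measured in 1 colour on Agilent 4x44K rat arrays. The deposited scanner files hold spot intensities that were background-subtracted and corrected for spatial trend by version 10.7.1.1 of Agilent Feature Extraction, as stated per the file headers. The deposited value table holds intensities on a linear scale, the same set of values in each column, and served as an alternative. Here, log2 of the processed signal minus the array's 75th percentile over 42877 non-control spots was used, with spots of the same probe averaged and outlier spots left out. The test took the 19102 probes that the scanner software marked well above background throughout 1 or both groups, and a gene took its probe with the highest mean, which left 16574 genes. limma 3.58.1 in R 4.3.3 gave differences, 95% intervals and Benjamini-Hochberg adjusted p-values, and was tested on simulated data. Intervals are not adjusted for the number of genes, and the number of arrays limits the precision.

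The members, their roles and the gene lists were chosen with earlier results of these data known. Named are members on a fixed list where measured, members at an unadjusted p under 0.05 or without overlap, the 5 largest differences in each direction, members detected in part, and others as examples of a role. Alternatives concerned background correction, scaling, the deposited table, the filter, several probes of a gene, weights for arrays, the variance model, a replicate block and leaving out arrays in turn. Current symbols came from RefSeq (GRCr8) and were found for all 132 members, with array names kept in the text. Some items are not reported here. Probe positions are on rn4 as in the files, and exon or UTR positions are not given because no annotation of that build was used. Figures used Python 3.11.15 and matplotlib 3.10.9.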

Additional observations from a re-analysis of the deposited data

Results flagged for a closer look

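In 106 groups of 4 arrays (53 members in 2 groups), 8 held an array whose gap to its neighbour exceeded Dixon's 95% critical value, where chance flags about 1 group in 20. Ccl19 was flagged in both groups, for TCDD replicate 2 as the highest array (a gap of 0.873 of the range) and for control replicate 1 as the lowest (0.878). Cxcr7 was flagged for the same 2 arrays, at -2.78 against a next value of -3.14 for TCDD replicate 2 (0.859) and at -3.56 against -3.03 for control replicate 1 (0.917). Il16 was highest on TCDD replicate 2, at -3.25 against -3.72 (0.919). Ccl24 was lowest on TCDD replicate 4, at 2.18 against 3.06 (0.879). Ccl1 was highest on control replicate 3, at -5.50 against -6.18 (0.928), and Lcn2 on control replicate 4, at -3.28 against -4.50 (0.850).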

How the results depend on the processing

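Members past the adjusted threshold numbered 0 in all 21 alternatives, with 3 to 11 members at an unadjusted p under 0.05, and the wider list also stayed at 0. The count over all genes, 4 as reported, was 20 with normexp background correction, 0 with no filter (2032 at an unadjusted p under 0.05), 34 with a trended robust prior, 95 with array weights and 2 without both position 1 arrays, an alternative chosen after seeing the data. Leaving out 1 array gave 0 to 7 genes, and 4 to 8 members at an unadjusted p under 0.05. That member count was 11 with no filter and 8 with array weights. With the replicate number as a block, 0 genes passed (2139 at an unadjusted p under 0.05) and 7 members stood at an unadjusted p under 0.05. The numbers were not taken to pair the samples, since deviations of same-numbered arrays correlated at 0.23, -0.0031, -0.046 and 0.10, and not every TCDD array correlated best with its own number. The median number of members detected per array, 58, was 88.5 with the looser flag for a positive and significant signal and 52 when all probes of a member had to be well above background. The cause of these shifts was not tested. The sign turned in 56 values for named members and held in 550. Normexp gave -0.002 for Cxcr4, -0.0057 for Il11, -0.0233 for Il1rap, -0.0627 for Il1rapl1, 0.0284 for Il33, -0.01 for Il34. Quantile normalization gave -0.0245 for Cx3cl1, -0.0314 for Il1rapl1, -0.028 for Il34, median scaling -0.0166 for Cx3cl1, -0.0026 for Il1rapl1, -0.0173 for Il34, and the deposited table -0.0239 for Cx3cl1, -0.0315 for Il1rapl1, -0.0273 for Il34. Array weights gave -0.0253 for Cx3cl1, 0.0304 for Cx3cr1, -0.0163 for Cxcr7, -0.0155 for Icam1, -0.0057 for Il1rapl1, -0.0054 for Il34. The 75th percentile over probes gave -0.007 for Cx3cl1, -0.0077 for Il34, and leaving out both position 1 arrays 0.0941 for Cx3cr1, -0.0202 for Cxcr7, 0.0084 for Il16, -0.0884 for Il1rapl1. With each array left out in turn, the difference ran from -0.0272 to 0.057 for Cx3cl1, -0.0678 to 0.0514 for Cx3cr1, -0.0396 to 0.16 for Cxcr4, -0.0631 to 0.13 for Cxcr7, -0.15 to 0.18 for Icam1, -0.16 to 0.0128 for Il16, -0.037 to 0.11 for Il18, -0.70 to 0.0746 for Il1a, -0.0298 to 0.18 for Il1rap, -0.12 to 0.0912 for Il1rapl1, -0.037 to 0.35 for Il1rn, -0.022 to 0.0331 for Il34, -0.51 to 0.10 for Lcn2. Dim members near background, such as Ccl1, Ccl3 and Il1a, are limited by signal over background.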

Other observations

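Spread differed between the groups in a descriptive way. The SD was larger in TCDD dams for 34 of the 53 tested members (64.2%) and for 54.6% of all genes, but without TCDD replicate 2 for 22 (41.5%) and 46.4%. It was over 0.5 on the log2 scale in TCDD dams for 9 members (17.0%, against 3.70% of all genes) and in control dams for 3 (5.66%, against 3.49%). Without TCDD replicate 2 it was over 0.5 in TCDD dams for 8 members, against 2.7% of all genes. The 9 include Ccl19, Ccl5, Ccl6, Cxcl16 and Lcn2, each highest among TCDD arrays on replicate 2, and Ccl1, Ccl3 and Il1a, each not above background on at least 1 TCDD array. In 13 members, both groups had an SD under 0.15.

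Probes of 1 gene did not always read alike. The probes for 2 Cxcl12 transcripts were both on all 8 arrays. The first differed by -0.14 and the second by -0.24, and only the second was highest on TCDD replicate 2, at -0.85 against -2.18 to -1.43 on the other arrays. Both Il4ra probes are assigned to 1 transcript, yet 1 was on 8 arrays and the other on 2 TCDD and 1 control arrays.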
